A study of Mus musculus with 6 samples.

Results

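The genes described here are the secreted type 1 and type 2 cytokines of T cells, chosen by name: Ifng, Il2, Il3, Il4, Il5, Il13, Csf1 and Csf2. They are 8 of the 29393 mouse genes in the count table, and 6 of the 8 were among the 14916 genes that could be tested, those reaching 10 counts in 3 or more libraries. Il3 and Il5 stayed below 10 counts in each of the 6 libraries and are reported as not measured.

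RNA sequencing was performed on converted double negative T cells (cDNT) of adult C57BL/6 mice, that is T cells without CD4 and CD8 that are made in culture from CD4+CD25- T cells, with IL-2 and mature dendritic cells, and are then sorted. Cells kept for 24 h with IL-10 at 50 ng/ml (W/ IL-10, called IL-10 libraries here) were compared with control cells without IL-10 (W/O IL-10, called controls here), and the question was how IL-10 changes their transcripts. According to the study's methods the cells also received anti-CD3/CD28 antibodies, which the sample labels do not mention, and the labels give spleen as the tissue. Each group had 3 libraries, although the design text speaks of duplicates, and nothing says that the libraries came from separate cultures or animals, so p-values measure only the spread between these samples, which may be technical.

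IFN-γ (Ifng), the cytokine that defines type 1 responses, acts on macrophages and is induced by T-bet, STAT4 and Eomes. IL-4, IL-5 and IL-13 define type 2 responses, act on B cells, eosinophils and epithelia, and are encoded side by side with the DNA repair gene Rad50 under the influence of GATA3. IL-2 is the T cell growth factor. IL-3, GM-CSF (Csf2) and M-CSF (Csf1) feed myeloid cells, and IL-3, IL-5 and GM-CSF signal through a shared β chain. IL-10 is mainly known as a cytokine that restrains inflammatory responses.

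Of the 8 genes, 5 lie on chromosome 11 (build GRCm38, GENCODE M21). Ifng (ENSMUSG00000055170) is at chr10:118441046-118445892 on the plus strand. Il4 (ENSMUSG00000000869, chr11:53602982-53618669, minus strand) and Il13 (ENSMUSG00000020383, chr11:53631324-53634702, minus strand) start 16.0 kb apart, and Il5 (ENSMUSG00000036117, chr11:53720794-53725106, plus strand) starts 86.1 kb from Il13. Il3 (ENSMUSG00000018914, chr11:54265303-54267277, minus strand) and Csf2 (ENSMUSG00000018916, chr11:54247271-54249667, minus strand) start 17.6 kb apart on the same chromosome. Il2 (ENSMUSG00000027720, chr3:37120523-37125959, minus strand) and Csf1 (ENSMUSG00000014599, chr3:107741048-107760469, minus strand) are both on chromosome 3 but far from each other.

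All 8 symbols matched a start site in the RefSeq promoter table (GRCm38.p6). The 250 bases upstream of the start are shown for Ifng, the gene whose level changed, and for Il4 and Il13, the measured type 2 genes, so that the proximal promoters can be read beside the values that follow. Each is printed 5′ to 3′ on the strand of its gene, and capitals mark matches on either strand to GGAAAA (the core of NFAT sites), TGANTCA (AP-1), TTCNNNGAA (STAT), TCACACCT (T-box) or AGATAA (the motif of the GATA factors).
Ifng, chr10:118440796-118441045: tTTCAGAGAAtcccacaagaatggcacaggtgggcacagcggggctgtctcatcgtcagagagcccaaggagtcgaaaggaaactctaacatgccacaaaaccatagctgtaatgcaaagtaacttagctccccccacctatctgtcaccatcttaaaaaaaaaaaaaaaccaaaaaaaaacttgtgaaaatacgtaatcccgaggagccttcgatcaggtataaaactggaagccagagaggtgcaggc
Il4, the upstream of 2 start sites, chr11:53618666-53618915: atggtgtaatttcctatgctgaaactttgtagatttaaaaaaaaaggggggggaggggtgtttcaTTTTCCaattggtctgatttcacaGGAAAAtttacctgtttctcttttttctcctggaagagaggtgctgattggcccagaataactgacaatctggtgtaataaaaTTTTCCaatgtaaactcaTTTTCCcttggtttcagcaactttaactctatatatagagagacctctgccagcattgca
Il13, chr11:53634703-53634952: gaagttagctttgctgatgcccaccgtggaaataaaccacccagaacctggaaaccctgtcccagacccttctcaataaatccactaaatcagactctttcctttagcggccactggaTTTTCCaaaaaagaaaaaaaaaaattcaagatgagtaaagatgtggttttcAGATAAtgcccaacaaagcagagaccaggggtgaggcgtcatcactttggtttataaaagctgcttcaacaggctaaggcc

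The search covered 250 bases before to 50 after each RefSeq start. The Ifng promoter held 1 STAT match, 249 bases before the start, and none of the other letters. The upstream start site of Il4 held 4 NFAT core matches, at -185, -161, -78 and -60, and Il13 held 1 NFAT core match at -132 and 1 GATA match at -81. The other start site of Il4 held 1 STAT match at -4. Il2 held 2 NFAT core matches, at -137 and -48, and Il3 and Csf2 each held 1 GATA match. Csf2 is on the minus strand and starts at 54249667 in GENCODE, so its window, chr11:54249850-54250149, lay wholly upstream of that start. The bases next to the GENCODE start of Csf2 were not searched. No match to any of the 5 motifs was found for Il5 or Csf1 in these windows. The NFAT core thus stood in 3 of the 8 genes against 23.4% of 32851 mouse promoters, GATA in 3 against 11.2%, STAT in 2 against 8.3%, AP-1 in 0 against 7.81% and T-box in 0 against 1.28%. A gene was counted with a match at any of its start sites, of which Il4 had 2. The percentages are per promoter, so the units differ. A match is a run of letters and not a measured binding site.

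The libraries summed to 22953260 to 23967088 in controls and 21619420 to 22958891 with IL-10. Levels are given as CPM, the counts scaled to a fixed library total with TMM factors, and 3 counts, the limit that a count of 0 allows, correspond to 0.122 to 0.146 CPM, which covers counting error only. One library stood apart: in control replicate 1, genes with at most 40% GC lay at a median of -0.506 on the log2 scale from their mean over all libraries, against 0.058 to 0.254 in the other 5. Values without this library are given beside the cytokine genes. Markers of the labelled cell type were present: all 8 T cell markers (Cd3d, Cd3e, Cd3g, Cd247, Trac, Trbc1, Trbc2 and Lck) were measured, at a summed 1904 to 2308 CPM in controls and 2477 to 2534 CPM with IL-10. Cd4 had 8 to 38 counts per library. Cd8a, in contrast, had 2316 to 3786 counts, so its transcript was present in cells described as lacking CD8. As these are bulk samples, fewer cells of a type and less RNA per cell cannot be told apart.

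Ifng rose with IL-10, and of the 6 tested cytokine genes it was the only one to pass the test. The level was 10.61, 9.957 and 13.12 CPM in control replicates 1, 2 and 3 (241 to 305 counts), and 27.81, 23.86 and 25.38 CPM in IL-10 replicates 1, 2 and 3 (538 to 580 counts). Every IL-10 library lay above every control, as in 11.3% of all tested genes, and the gap between the groups was wider than the range within either. Mean levels were 11.23 ± 1.67 CPM in controls and 25.68 ± 1.99 CPM with IL-10 (SD, n = 3 each), a 2.29-fold increase with a log2 fold change of 1.19 (SE 0.129, 95% interval 0.90 to 1.49, edgeR quasi-likelihood test, adjusted p = 0.00383).

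A gene was called at a fold change of at least 1.5 and an adjusted p under 0.05, by which 0.778% of the 14916 tested genes were called higher with IL-10 and 0.677% lower. An adjusted p under 0.05 at any fold change was reached by 2.19% of tested genes and by 1 of the 6 tested cytokine genes. The Ifng call held with each library left out in turn, with log2 fold changes of 1.11 to 1.31 (1.15 without control replicate 1) and adjusted p-values of 0.000714 to 0.0432. It was lost when the test asked for a change beyond 1.5-fold rather than beyond 0 (edgeR glmTreat, adjusted p = 0.0791). Of the exon bases of Ifng, 25.9% also lie under Gm49751, an unverified transcript on the same strand, so reads there cannot be told apart. Gm49751 itself had 1.566 CPM in controls and 2.559 CPM with IL-10 (log2 fold change 0.70, adjusted p = 0.24).

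**Figure D1:**
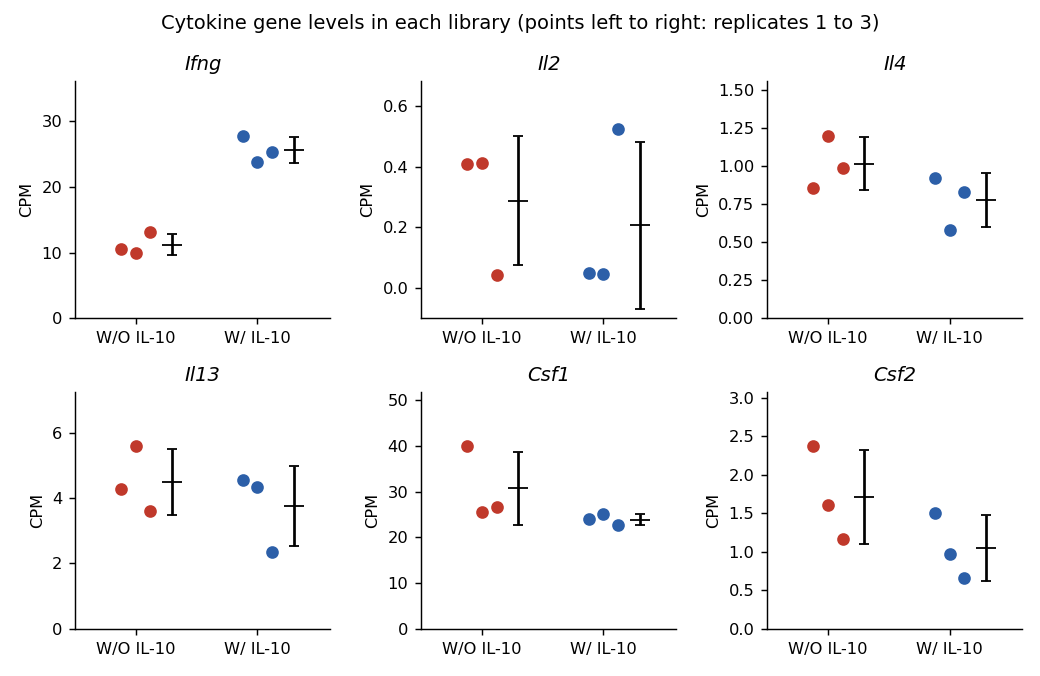
Levels of the 6 tested cytokine genes in CPM (linear vertical axes), with 1 point per library (red W/O IL-10, blue W/ IL-10) and, beside them, the mean and SD of the 3 libraries of a group. The Ifng points separate widely, those of Csf1 narrowly, and the points of the other 4 genes overlap between the groups; the lower SD bar of Il2 runs below 0.

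The type 2 genes stood at lower levels per exon length than Ifng, and no change of theirs passed the test. Il13, which drives mucus production and alternative macrophage activation, had 4.285, 5.578 and 3.614 CPM in controls and 4.562, 4.347 and 2.363 CPM with IL-10 (54 to 135 counts). The groups overlapped, and the widest gap in either was that of the single low library, IL-10 replicate 3. The means were 4.49 ± 0.998 and 3.76 ± 1.21 CPM (SD, n = 3). On the log2 scale they differed by -0.26, with a 95% interval of -0.90 to 0.38 (edgeR, adjusted p = 0.713). Leaving out 1 library gave differences from -0.01 on the log2 scale, without IL-10 replicate 3, and -0.08, without control replicate 2, to -0.41, without control replicate 3, and -0.42, without IL-10 replicate 1. Without control replicate 1 it was -0.31.

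Il4, the cytokine that directs type 2 differentiation and class switching, stood near 1 CPM. Its levels were 0.857, 1.198 and 0.989 CPM in controls and 0.922, 0.577 and 0.832 CPM with IL-10, from 13 to 29 counts per library. These overlapped as well. The log2 fold change was -0.39 with a 95% interval of -1.16 to 0.39 (edgeR, adjusted p = 0.646). Leaving out 1 library gave values from -0.21, without IL-10 replicate 2, and -0.26, without control replicate 2, to -0.52, without IL-10 replicate 1, with -0.51 without control replicate 1.

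Il5, the eosinophil growth and survival factor, had counts of 1, 0 and 1 in controls and 0, 0 and 2 with IL-10. No library went above 2 counts, under the 3 that a count of 0 allows, and no comparison was made. Of its exon bases, 27.1% lie under Gm12214 on the opposite strand.

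Among the growth factors, Il2 was barely detected. Its counts were 10, 10 and 1 in controls and 1, 1 and 12 with IL-10, or 0.408, 0.413 and 0.043 against 0.049, 0.044 and 0.525 CPM. Both groups thus held libraries at 1 count and libraries at 10 or more, and the 6 libraries fell into no order by group. Of the 50-base stretches of Il2, 12.6% also occur in transcripts of Ntan1. The log2 fold change of -0.46 had a 95% interval of -2.68 to 1.76 (edgeR, adjusted p = 0.87), and it was 0.02 without IL-10 replicate 2, -0.02 without IL-10 replicate 1 and -0.96 without control replicate 3.

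Il3, a growth factor of mast cells and early myeloid cells, had counts of 3, 1 and 6 in controls and 1, 0 and 6 with IL-10. The highest of these was 6 in each group, and the gene was not tested. Csf2, its neighbour, which encodes GM-CSF, had 2.367, 1.611 and 1.162 CPM in controls (27 to 58 counts) and 1.504, 0.976 and 0.657 CPM with IL-10 (15 to 31 counts). The 2 highest values were controls and the 2 lowest IL-10 libraries, but the groups overlapped, with IL-10 replicate 1 above control replicate 3.

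The mean of Csf2 was 1.71 ± 0.609 CPM in controls and 1.05 ± 0.428 CPM with IL-10 (SD, n = 3). The log2 fold change of -0.72, the largest negative estimate among the 6 tested genes, had a 95% interval of -1.62 to 0.18 and did not pass the test (edgeR, adjusted p = 0.446). It was -0.43 without control replicate 1 and -0.47 without IL-10 replicate 3, but -0.95 without control replicate 3 and -1.07 without IL-10 replicate 1. Gm12223 on the opposite strand covers 12% of the Csf2 exon bases.

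Csf1, which encodes the macrophage growth factor M-CSF, had 495 to 978 counts per library, the most of the 8 genes over the 6 libraries together. Its levels were 39.91, 25.62 and 26.72 CPM in controls and 24.02, 25.06 and 22.71 CPM with IL-10. Every IL-10 library lay below every control, as was the case for 11.2% of all tested genes. The nearest libraries of the groups were 25.62 and 25.06 CPM, and the difference in means rested on 1 library: the log2 fold change was -0.36 (95% interval -0.74 to 0.01, edgeR, adjusted p = 0.356) and -0.14 without control replicate 1, the library that stood apart by GC content. The longest transcript of Csf1 has 54.4% GC and that of Ifng 43.5%. When GC content and exon length were corrected for, the log2 fold change of Csf1 was -0.26 and that of Ifng 1.09 (adjusted p = 0.0023).

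Of the 6 tested genes, 1 had a positive log2 fold change and 5 a negative one, with a median of -0.37 against 0.01 over all tested genes. The Ifng interval did not reach the interval of any other of the 6 except that of Il2.

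**Figure D2:**
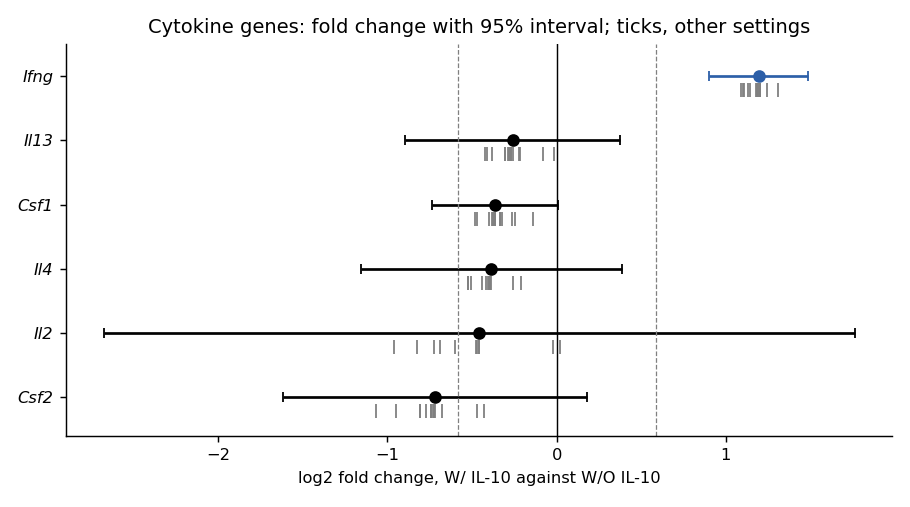
Log2 fold change W/ IL-10 against W/O IL-10 of the 6 tested cytokine genes, with the 95% interval from edgeR as a bar and the value under each other setting or left-out library as a grey tick; dashed lines stand at 1.5-fold either way. Ifng lies at 1.19 with ticks from 1.09 to 1.31, and the intervals of the other 5 genes cross 0.

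To compare the genes with each other, the CPM were divided by exon length, the bases in an exon of any annotated transcript. On this scale the order from high to low was Ifng, Csf1, Il13, Csf2, Il4, Il2, Il3 and Il5 in both groups. The order of Ifng and Csf1 in controls depends on these lengths, 1295 bases over 2 transcripts for Ifng and 5281 over 7 for Csf1. Before division the control means were 11.23 CPM for Ifng and 30.75 CPM for Csf1. Ifng had 8.67 ± 1.29 CPM per kb in controls and 19.8 ± 1.54 with IL-10, Csf1 5.82 ± 1.51 and 4.53 ± 0.223, and Il13 3.73 ± 0.828 and 3.12 ± 1.01 (SD, n = 3). Csf2 followed at 2.14 ± 0.761 and 1.31 ± 0.535 CPM per kb and Il4 at 0.827 ± 0.14 and 0.633 ± 0.146. In controls the ranges of Ifng and Csf1 lay next to each other, since the ratio of Ifng to Csf1 per kb was 1.084 to 2.002 across the 3 libraries.

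With IL-10 that ratio was 3.883 to 4.721. The ratio of Ifng to Il13 went from 1.661 to 3.378 in controls to 5.107 to 9.994 with IL-10, and that to Il4 from 7.875 to 12.56 to 28.58 to 39.21. Ifng to Csf2 was 2.769 to 6.975 in controls and 11.42 to 23.88 with IL-10. None of these 4 ratios overlapped between the groups, and since Ifng is the numerator of each they are not independent of its rise.

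Ifng took 34.8%, 37.4% and 48.4% of the summed CPM per kb of the 8 genes in control replicates 1, 2 and 3, and 66.0%, 64.6% and 69.3% in IL-10 replicates 1, 2 and 3. Csf1 took 23.6% to 32.1% in controls and 14.0% to 16.7% with IL-10, and Il13 took 14.3% to 22.5% and 6.93% to 12.7%. Since Ifng is part of the same sum, its rise lowers the shares of the other genes, and these shares say nothing of their own levels.

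**Figure D3:**
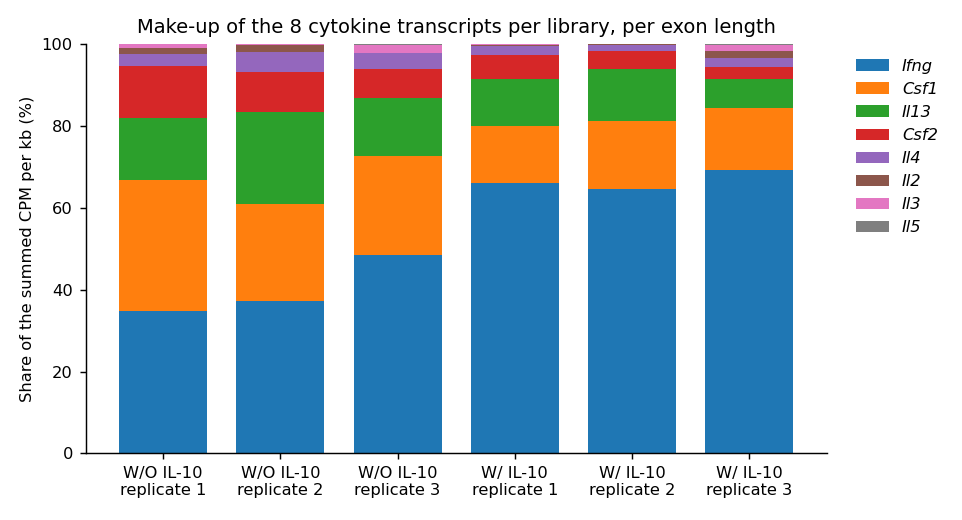
Stacked bars of the share, in percent, that each of the 8 genes took of their summed CPM per kb in each library. The Ifng share is below 50% in the 3 W/O IL-10 libraries and above 60% in the 3 W/ IL-10 libraries, and Il2, Il3 and Il5 form thin bands at the top.

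Mast cells and basophils also transcribe Il4, Il13 and Csf2, and transcripts that mark them were abundant in these cells, sorted as double negative T cells. The study's methods do not list the markers used for that sort. The sum over Mcpt8, Fcer1a, Ms4a2 and Cpa3 was 754.6 to 1036 CPM in controls and 569.2 to 800.7 CPM with IL-10, and 0 of the 4 genes were called (edgeR; 2 at an unadjusted p under 0.05; 0 by DESeq2). Cpa3, a mast cell protease, stood at 668.5, 808.1 and 576.7 CPM in controls and at 528.0, 597.0 and 419.8 CPM with IL-10. It was highest in control replicate 2 and lowest in IL-10 replicate 3, as was Il13. Mcpt8, a basophil protease, had 157.8, 77.67 and 65.48 CPM in controls and 89.34, 78.46 and 58.12 CPM with IL-10, with its highest and lowest libraries the same as those of Csf2. The crossed pairs differed: Mcpt8 was highest in control replicate 1, unlike Il13. Cpa3, Fcer1a and Ms4a2 were highest in control replicate 2, unlike Csf2. All 4 markers were lowest in IL-10 replicate 3. Il4 shared its highest library with Cpa3, control replicate 2, but was lowest in IL-10 replicate 2, where Cpa3 was at its highest of the IL-10 libraries.

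A further list of 8 mast cell and basophil genes (Kit, Gata2, Prss34, Cd200r3, Hdc, Cma1, Mcpt4 and Tpsb2), chosen after values had been seen, summed to 730.3 to 932.9 CPM in controls and 549.3 to 609.2 CPM with IL-10 without overlap. Of these, Tpsb2, a mast cell tryptase, was called lower (log2 fold change -0.73, edgeR, adjusted p = 0.0191, up to 0.0981 with a library left out). Mcpt4 alone of this list had a positive log2 fold change (0.22, edgeR, adjusted p = 0.77), at 2.805 and 3.261 CPM. The part of mast cells and basophils in the levels of Il4, Il13 and Csf2 was not tested.

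Other cell types were represented less. B cell markers summed to 55.66 to 136.3 CPM in controls and 51.47 to 93.81 with IL-10, macrophage markers to 26.9 to 34.52 and 31.06 to 34.31, and neutrophil markers to 1.818 to 3.183 and 1.007 to 1.597. Dendritic cell markers summed to 29.38 to 32.95 CPM in controls and 50.03 to 60.92 with IL-10, of which Itgax alone was called, and higher (log2 fold change 1.09, edgeR, adjusted p = 0.00383), and most of the sum is Itgax. Xcr1, another marker of that list, was higher with IL-10 without overlap, at 3.882 and 5.881 CPM (log2 fold change 0.60, edgeR, adjusted p = 0.184). Zbtb46, also of that list, was lower with IL-10 without overlap, at 6.69 and 4.932 CPM (log2 fold change -0.44, edgeR, adjusted p = 0.212). Clec9a, Siglech and Flt3 stayed under 10 counts. The summed NK cell markers (Ncr1, Klrb1c and Eomes), 545.3 to 573.4 CPM in controls and 382.7 to 412.8 with IL-10, did not overlap between the groups, and NK cells also transcribe Ifng. Of these, Ncr1 was called lower (log2 fold change -1.15, edgeR, adjusted p = 0.046, up to 0.22 with a library left out). Klrb1c overlapped between the groups, at 32.84 and 27.35 CPM (-0.265, edgeR, adjusted p = 0.444). Eomes, which T cells also express, makes up most of the sum. Cd8b1 was called higher, as was Ifng (log2 fold change of Cd8b1 0.67, edgeR, adjusted p = 0.0306, up to 0.178 with a library left out). The summed CD4 and CD8 coreceptor genes were 129.7 to 164.5 CPM in controls and 198.2 to 232.6 with IL-10. Most of that sum is Cd8a, at 106.7 and 157.5 CPM (0.56, edgeR, adjusted p = 0.0369), under 1.5-fold. Cd4 overlapped between the groups, at 1.386 and 0.888 CPM (-0.65, edgeR, adjusted p = 0.545). The summed T cell markers were also higher with IL-10 without overlap, although 0 of the 8 were called (edgeR; 3 at an unadjusted p under 0.05; 0 by DESeq2). The part of NK cells, of CD8 expressing cells or of the share of T cells in the Ifng level was not tested.

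**Figure D4:**
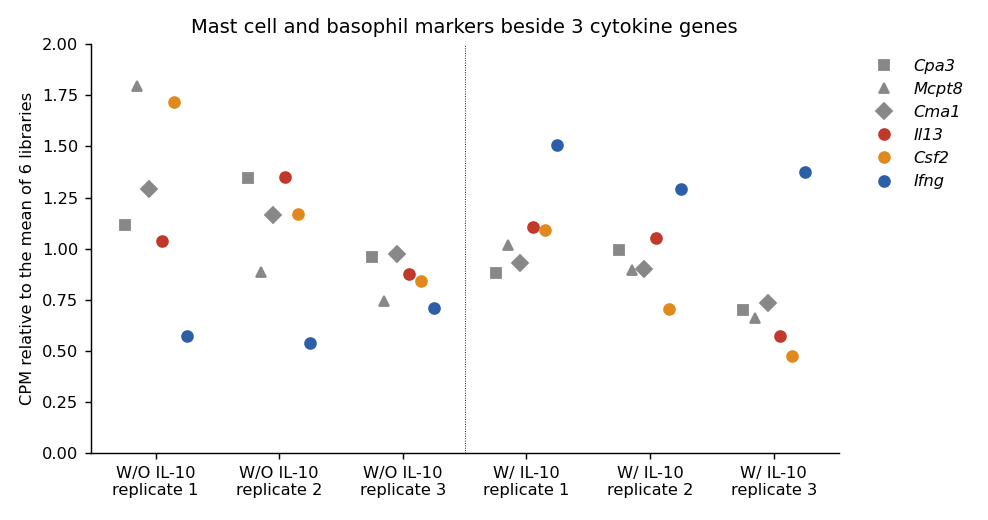
CPM of Cpa3, Mcpt8 and Cma1 (grey; mast cell and basophil genes) and of Il13, Csf2 and Ifng (coloured) in each library, each divided by its mean over the 6 libraries (linear vertical axis from 0). Cpa3, Mcpt8, Il13 and Csf2 are all at their lowest in W/ IL-10 replicate 3, where Ifng is above its mean.

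Lists of genes around these cytokines were then read: their receptor chains, transcription factors, mRNA decay factors, response genes and other cytokines. In all, 8 genes of these lists were called, and this number was 6, 1 and 5 without control replicates 1, 2 and 3, and 2, 2 and 0 without IL-10 replicates 1, 2 and 3. With edgeR glmTreat at 1.5-fold it was 0. Besides the called genes and the most abundant ones of each list, genes with an adjusted p under 0.05 are named. Some receptor chains and some genes without overlap of the groups are named too. Those further genes were chosen after their values were seen.

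Of the 14 receptor chains, 13 were in the table and 11 were tested, of which 0 were called higher and 2 lower, with a median log2 fold change of -0.21. The 2 encode β chains of the receptors for GM-CSF, IL-3 and IL-5. Csf2rb, the chain shared by all of these receptors, was at 187.2, 174.6 and 134.4 CPM in controls and 103.3, 115.3 and 92.08 CPM with IL-10, without overlap (log2 fold change -0.68, SE 0.132, edgeR, adjusted p = 0.0407). Csf2rb2, the IL-3 specific β chain of the mouse, fell from 245.3 ± 39.5 to 158.1 ± 16.4 CPM (log2 fold change -0.63, SE 0.128, edgeR, adjusted p = 0.0447). The pair share sequence: 12.3% of the 50-base stretches of Csf2rb and 18.9% of those of Csf2rb2 occur in transcripts of other genes, each other's included. With a library left out the adjusted p reached 0.205 for Csf2rb and 0.219 for Csf2rb2, and once GC content and length were corrected for, their log2 fold changes were -0.58 and -0.55, under 1.5-fold, which ended both calls. Without control replicate 1, Csf2rb2 was at -0.57, also under 1.5-fold. Mast cells and basophils carry these chains too, and the part of the lower marker sums in this result was not tested.

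The ligand-binding chains of the same receptors gave no call. Csf2ra had 18.46 CPM in controls and 13.63 with IL-10 (log2 fold change -0.44, edgeR, adjusted p = 0.132), and Il5ra 0.987 and 0.515 CPM (-0.93, adjusted p = 0.248). Il3ra, the most abundant of these chains, overlapped between the groups, at 50.15 and 46.13 CPM (-0.12, edgeR, adjusted p = 0.698). For IFN-γ, Ifngr1 was abundant at 681.4 and 781.6 CPM (log2 fold change 0.20, edgeR, adjusted p = 0.448), whereas Ifngr2, the signalling chain, had 6.795 and 3.473 CPM (-0.97, adjusted p = 0.106). The IL-2 receptor chains were among the highest transcripts of the lists, with Il2rb at 1792 and 1765 CPM (-0.02, adjusted p = 0.931) and Il2ra at 419.4 ± 10.1 and 562.7 ± 56.8 CPM (0.42, adjusted p = 0.0548). Il4ra was at 252.8 and 218.9 CPM (-0.21, adjusted p = 0.286). Csf1r, the receptor of M-CSF, had 2 to 8 counts and Il13ra1 at most 4, and neither was measured.

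Among 6 transcription factors of type 1 differentiation, 1 was called. Hlx, a homeobox factor that acts with T-bet on Ifng, had 2.979, 2.933 and 2.882 CPM in controls and 5.386, 6.786 and 8.009 CPM with IL-10, without overlap. Its log2 fold change was 1.20 (SE 0.193, edgeR, adjusted p = 0.0213, up to 0.13 with a library left out). The part of Hlx in the Ifng level was not tested. Tbx21, which encodes T-bet, had 23.88 ± 1.98 and 32.56 ± 0.324 CPM (log2 fold change 0.45, SE 0.092, edgeR, adjusted p = 0.0467), under 1.5-fold and with an adjusted p of up to 0.206 when a library was left out. Eomes, the related T-box factor, lay the other way, at 516.8 ± 20.5 and 363.9 ± 16.7 CPM (-0.51, SE 0.078, edgeR, adjusted p = 0.0176, up to 0.123). Stat4, which carries the IL-12 signal, had a log2 fold change of 0.23 (edgeR, adjusted p = 0.426) and Runx3 of -0.12. The 6 factors thus held values on both sides of 0, with a median of 0.06.

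Of the 7 type 2 factors, 1 was called, and the median log2 fold change of the list was -0.21. Junb, an AP-1 subunit that acts on Il4 and is also an early activation gene, had 185.4 ± 6.50 and 284.4 ± 37.4 CPM (log2 fold change 0.62, SE 0.102, edgeR, adjusted p = 0.0236, up to 0.136 with a library left out). Without control replicate 1 its log2 fold change was 0.58, just under 1.5-fold, and the call was lost. Maf, an activator of Il4, had 73.80 ± 5.28 and 51.61 ± 4.41 CPM (-0.52, SE 0.09, edgeR, adjusted p = 0.0272, up to 0.16). Gata3, the type 2 master factor, had 34.90 and 29.00 CPM without overlap of the groups, and its log2 fold change of -0.27 did not pass the test (edgeR, adjusted p = 0.228).

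The 13 transcription factors of T cell activation had a median log2 fold change of 0.01, and 0 were called (edgeR; 3 at an unadjusted p under 0.05; 1, Fos, called by DESeq2). The most abundant were Nfkb1 (-0.13), Nfatc1 (0.01) and Nfatc3 (0.03), all far from the test's threshold. Of 6 factors that bind and destabilise cytokine mRNAs, 0 were called (edgeR; 2 at an unadjusted p under 0.05; 0 by DESeq2). Zfp36, which encodes tristetraprolin, had 70.21 and 89.63 CPM (log2 fold change 0.35, adjusted p = 0.0671), Rc3h1, which encodes roquin, had 89.48 and 109.7 CPM (0.29, adjusted p = 0.384), and Zfp36l2 had 494.7 and 461.5 CPM (-0.10, adjusted p = 0.632).

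Among genes that IFN-γ induces in many cells, none was called together with Ifng. Of 20 such genes 18 were tested, 0 were called (edgeR; 6 at an unadjusted p under 0.05; 0 by DESeq2), and their median log2 fold change was -0.11. The groups did not overlap for 7 of them, 3 higher and 4 lower with IL-10, against 11.3% and 11.2% of all tested genes. The 3 higher were Gbp2, Gbp3 and Gbp5 (log2 fold changes 0.265, 0.314 and 0.478, edgeR, adjusted p = 0.0963, 0.133 and 0.101). The 4 lower were Irgm1, Irgm2, Igtp and Tap1. The 2 with an adjusted p under 0.05 were both lower and both encode immunity-related GTPases, Irgm2 (52.54 and 38.17 CPM, log2 fold change -0.46, edgeR, adjusted p = 0.0391) and Igtp (134.0 and 101.0 CPM, -0.41, adjusted p = 0.043), with adjusted p-values of up to 0.184 and 0.191 when a library was left out. Tap1, the peptide transporter and the most abundant of the list, had a log2 fold change of -0.15, Gbp4 of 0.03 and Gbp7 of 0.21. Cxcl9 and Ido1, typical targets in macrophages, stayed under 10 counts.

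Of 7 genes that IL-2 induces, 0 were called (edgeR; 5 at an unadjusted p under 0.05; 0 by DESeq2), with a median log2 fold change of 0.07. Pim1, a kinase gene, had 262.8 and 377.2 CPM (log2 fold change 0.52, edgeR, adjusted p = 0.019) and Ccnd2, which encodes cyclin D2, 280.4 and 213.3 CPM (-0.40, adjusted p = 0.0422), both under 1.5-fold and in opposite directions. With a library left out their adjusted p-values reached 0.112 and 0.205.

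Of 21 other cytokine genes, 20 were in the table and 15 tested, with 1 called higher and 3 lower and a median log2 fold change of -0.12. Il10 itself had 0.449, 0.537 and 0.301 CPM in controls and 2.426, 1.375 and 1.663 CPM with IL-10, from 7 to 50 counts (log2 fold change 2.07, SE 0.377, edgeR, adjusted p = 0.0318). It was the only cytokine besides Ifng, among the 21 tested of both lists, to be called higher.

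Il17a, the signature cytokine of type 17 cells, fell from 72.06 ± 10.9 to 34.49 ± 8.87 CPM (log2 fold change -1.06, SE 0.18, edgeR, adjusted p = 0.0247). Lif, a cytokine of the IL-6 family, fell from 22.21 ± 1.77 to 12.79 ± 0.2 CPM (-0.80, SE 0.102, adjusted p = 0.00846), and Lta, which encodes lymphotoxin α, from 11.75 ± 0.649 to 6.384 ± 0.833 CPM (-0.88, SE 0.142, adjusted p = 0.0213). With a library left out the adjusted p reached 0.135 for Il10, 0.133 for Il17a, 0.0704 for Lif and 0.116 for Lta. Tnf stood at 26.45 and 25.78 CPM (-0.04, adjusted p = 0.896).

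**Figure D5:**
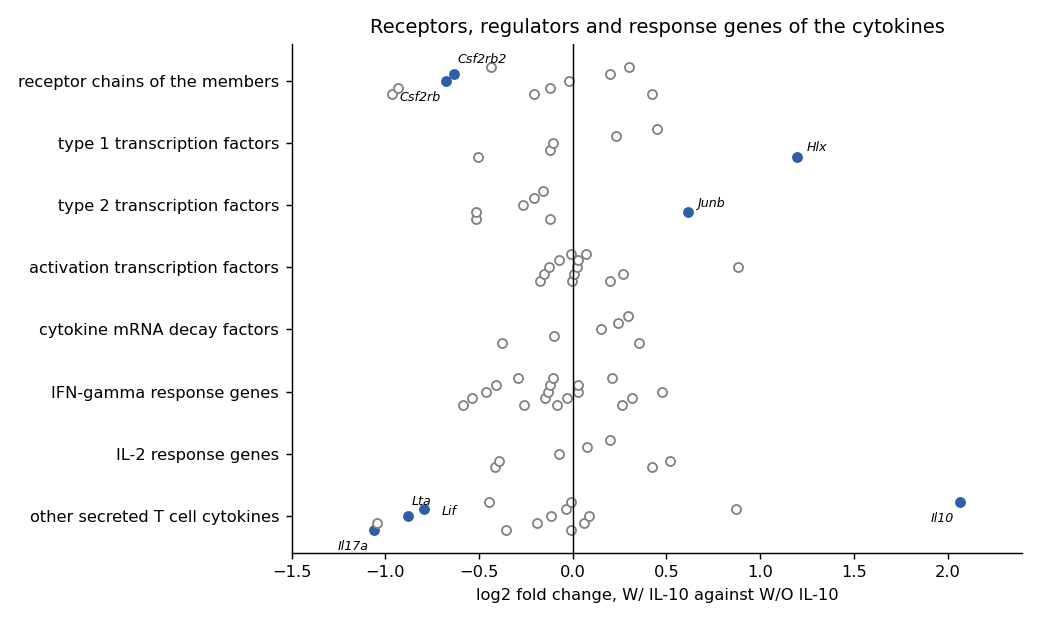
Log2 fold change W/ IL-10 against W/O IL-10 of each tested gene in the 8 lists around the cytokines, 1 point per gene; filled points with a name passed 1.5-fold and an adjusted p under 0.05 and open points did not. Called genes lie on both sides of 0, from Il17a at -1.06 to Il10 at 2.07, and the activation and response lists hold no filled point.

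Genes next to the 8 cytokines showed no change that passed the test. Within 250 kb of their start sites lay 55 other genes of the table, of which 20 were tested and 0 called (edgeR; 3 at an unadjusted p under 0.05; 0 by DESeq2), with log2 fold changes of -0.77 to 0.70 and a median of -0.002. Sept8, 99.4 kb from the start of Il4, had the lowest adjusted p of the tested neighbours. It was lower with IL-10 without overlap, at 43.73 and 30.68 CPM (log2 fold change -0.51, edgeR, adjusted p = 0.136). Ifngas1, the long noncoding RNA that lies 115.5 kb from the start of Ifng, had 6.227 and 6.209 CPM (log2 fold change -0.004, edgeR, adjusted p = 0.993). Rad50, which contains the locus control region of the type 2 cytokines, had 72.81 and 77.63 CPM (0.09, adjusted p = 0.681), and Irf1, on the other side of Il5, 134.7 and 126.9 CPM (-0.09, adjusted p = 0.643).

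Over the 6 libraries, the genes whose log2 CPM was most like that of Ifng, among 12971 tested genes with a mean of at least 1 CPM, were Gpr171 (Pearson r 0.9959), Atp6v0d2 (0.9947) and Ccnyl1 (0.993). Gpr171, a G protein-coupled receptor gene, had 166.5 CPM in controls and 229.9 CPM with IL-10 (log2 fold change 0.47, edgeR, adjusted p = 0.0196). Atp6v0d2, a subunit gene of the vacuolar proton pump, had 13.78 and 21.4 CPM (0.64, adjusted p = 0.0258), and Ccnyl1, a gene related to cyclin Y, 13.06 and 15.66 CPM (0.26, adjusted p = 0.263). These r values describe the 3 highest of many, over libraries that share the contrast between the groups.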

How the data were processed

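RNA of mouse cDNT was sequenced by the authors in 3 libraries with IL-10 (W/ IL-10) and 3 controls (W/O IL-10), who deposited 1 table of whole-number counts per Ensembl gene without normalization. The submitters' processing notes name HISAT2, HTSeq and GRCm38, whereas the study's methods name TopHat and Cufflinks, and the labels name a TruSeq kit where the methods name NEBNext. Versions and the use of strand are not given in the sources used here. The protocol text of the labels is identical for both groups, and groups were taken from the sample descriptions.

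TMM factors, CPM and the quasi-likelihood test were computed with edgeR 4.0.16 (R 4.3.3) from the deposited counts of all 6 libraries, with no block, for 14916 genes that reached 10 counts in 3 or more libraries. Benjamini-Hochberg adjustment covered every tested gene, and genes past a fold change of 1.5 and an adjusted p of 0.05 were called. The steps were checked on simulated counts. Alternatives were DESeq2 1.42.0, upper-quartile factors, limma-voom (limma 3.58.1), no filter and a filter in every library, a replicate block, glmTreat, a correction for GC content and length (splines with 5 degrees of freedom), and each library left out. For the levels, CPM of unscaled totals and DESeq2 size factors were tried. Exon lengths, GC content (of the longest transcript) and overlaps come from GENCODE M21, which held 29332 of the 29393 identifiers.

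The 8 genes and the lists around them were chosen with earlier results of these data known. Named by rule were the 8 genes and the called genes of a list, or otherwise its 3 most abundant. So were the 3 genes most correlated with a called cytokine gene (log2 CPM, prior count 2). The rule also covered all tested neighbours within 250 kb, of which only some are named here. Some results for single genes of the lists are not reported here.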

Additional observations from a re-analysis of the deposited data

How the results depend on the processing

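Ifng kept its direction and its call in 14 of 15 alternatives, with log2 fold changes of 1.09 to 1.31. With edgeR glmTreat at a fold change of 1.5 its adjusted p was 0.0791, and the number of called cytokine genes went from 1 to 0, that of called genes in the surrounding lists from 8 to 0. Leaving out single libraries gave 0 to 6 called list genes. The log2 fold change of Il2 turned from -0.46 to 0.02 without W/ IL-10 replicate 2, and with libraries left out it ranged from -0.96 to 0.02. It could not be tested with at least 10 counts in every library or without W/O IL-10 replicate 1, W/O IL-10 replicate 2 or W/ IL-10 replicate 3, where fewer than 3 libraries reached 10 counts. Csf1, Csf2, Il4 and Il13 stayed negative and uncalled in 15 of 15 alternatives each. Of all tested genes 217 were called, against 359 with DESeq2, 637 with no filter, 15 with glmTreat, 330 with the GC content and length correction and the replicate block together, and 35 to 254 with a library left out.

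Over all tested genes, deviations from the group mean correlated at 0.0524, -0.0573 and 0.1136 between libraries of the same replicate number. Single genes could still follow the number: Csf2 and Mcpt8 each fell from replicate 1 to 2 to 3 in both groups. The methods do not say that the numbers are pairs, so the block was used as an alternative only. With it the SE fell for Ifng, Csf1, Il13 (0.28 to 0.209) and Csf2 (0.395 to 0.296), and rose for Il2 (0.978 to 1.174) and Il4 (0.34 to 0.396). With the replicate block 196 genes were called, Ifng had a log2 fold change of 1.20 (edgeR, adjusted p = 0.00939), Csf2 one of -0.72 (adjusted p = 0.326), Il10 lost its call (adjusted p = 0.0564), and 8 list genes were called. Counting error is largest for Il2, Il3, Il4 and Il5, which had at most 29 counts in a library.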
